A study of Mus musculus with 7 samples.

Results

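The serum amyloid A genes Saa1, Saa2, Saa3 and Saa4 and the short pentraxin genes Apcs and Crp were followed in mouse liver after a high-fat diet (HFD). These 6 genes were chosen by name, with earlier results of these data known, out of 32451 genes on the array. Each was measured by 1 probe. Of the 6, Saa1, Saa2 and Apcs were among the 1488 genes of the log2 value table that the authors deposited, and Saa3, Saa4 and Crp were not. The diet comparison below therefore covers Saa1, Saa2 and Apcs, and for Saa3, Saa4 and Crp the signals of the HFD arrays are given.

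Both groups were male mice of the strain that the labels give as C57/BJ, with no transgene or other allele named. They received either the high-fat diet D12331 from ResearchDiets or control chow from Provimi Kliba for 20 weeks, begun at 6 weeks of age, so that all were 26 weeks old when the liver was taken. There were 4 chow and 3 HFD samples of total liver RNA, each labelled with Cy3 and hybridised alone to an Agilent mouse array. The labels do not say which animal a sample came from, so p-values measure the spread between these samples, and precision is limited by the number of arrays.

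Serum amyloid A proteins are small apolipoproteins that travel on high-density lipoprotein. Hepatocytes make Saa1 and Saa2 in the acute phase response, when interleukin-6, interleukin-1 and tumour necrosis factor act through STAT3, NF-kappa-B and C/EBP factors. Saa3 is also made by macrophages and fat cells, and Saa4 is the constitutive member of the family. Apcs encodes serum amyloid P component, the main acute phase pentraxin of the mouse, and Crp encodes C-reactive protein, which responds little in this species. Pentraxins bind microbial and cell debris ligands and complement C1q.

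For the chow group, scanner files and table disagreed. Pearson's r between a scanner file and the table column of the same sample, over 1615 probes that are not independent of each other, was at least 0.99991 for HFD samples and 0.580 to 0.589 for the files labelled chow. Of 12 hepatocyte markers, each HFD array measured all 12 well above background, and 9 reached that on at least 1 file labelled chow. The scanner files labelled chow therefore enter no comparison here. A single scan day covered the 3 HFD arrays. For the table's chow values it is unknown, so scan day and diet cannot be told apart. HFD replicate 1 had a mean negative control signal of 46.9, against 29.9 and 30.8 on the other HFD arrays.

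The table had been selected on the diet comparison. At each of its 1615 probes the chow and HFD values were separate, so that a place in the table already fixed a separation of the groups. The p-values for Saa1, Saa2 and Apcs are therefore not independent evidence, and their lack of overlap is no result. Of all genes on the array 4.59% were in the table, and among the table's genes 46.2% had all HFD values below all chow values.

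The 3 listed genes lay in 2 chromosomal clusters. In the RefSeq order of genes Saa3, Saa4, Saa1 and Saa2 follow each other on chromosome 7, and Crp and Apcs are neighbours on chromosome 1. The sequences just before the starts of Saa1, Saa2 and Apcs are shown because these 3 genes differed between the diets in the same direction. Each is the 250 bases before the annotated start, 5′ to 3′ on the gene's strand, from RefSeq on build GRCm38.p6: Saa1 at chr7:46742981-46743230 on the minus strand, Saa2 at chr7:46751583-46751832 on the plus strand and Apcs at chr1:172895055-172895304 on the minus strand. Capitals mark matches to the 4 motifs named below.
Saa1: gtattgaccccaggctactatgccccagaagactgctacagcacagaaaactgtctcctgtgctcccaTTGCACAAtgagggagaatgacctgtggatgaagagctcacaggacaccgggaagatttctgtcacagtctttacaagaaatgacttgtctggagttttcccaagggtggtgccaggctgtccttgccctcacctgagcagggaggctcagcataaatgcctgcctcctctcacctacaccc
Saa2: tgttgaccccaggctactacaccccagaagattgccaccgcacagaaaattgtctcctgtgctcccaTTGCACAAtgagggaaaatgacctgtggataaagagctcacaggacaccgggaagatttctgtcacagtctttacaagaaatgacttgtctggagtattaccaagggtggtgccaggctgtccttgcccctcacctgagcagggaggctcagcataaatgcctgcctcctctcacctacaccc
Apcs: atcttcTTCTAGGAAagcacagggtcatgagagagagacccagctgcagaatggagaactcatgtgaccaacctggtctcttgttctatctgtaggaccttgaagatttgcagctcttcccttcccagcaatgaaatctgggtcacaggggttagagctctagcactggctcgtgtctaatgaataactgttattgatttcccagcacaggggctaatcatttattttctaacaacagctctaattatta

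The Saa1 and Saa2 windows were nearly the same sequence. In a global alignment 238 of 251 positions were identical, or 94.8%, and the remaining positions were 11 mismatches and 2 gaps. The Apcs window shared 51.1% of aligned positions with that of Saa1, within the 46.7% to 53.0% found for the other pairs of the 6 genes. Motifs were searched on both strands by their letters: TTGCNNAA for C/EBP, TTCNNNGAA for STAT and TATAAA for the TATA box. For NF-kappa-B a 10-letter consensus was used (GGG, 2 free letters and TTTCC). Only exact matches were counted, so near matches are not marked. The C/EBP letters were present in Saa1 (182 to 175 bases before the start), in Saa2 (183 to 176 bases), once in Saa3 and at 2 places in Saa4, and were found in 9.56% of 32851 promoter windows of the same length. The STAT letters were present in Apcs, 244 to 236 bases before the start, and in 7.02% of all windows. The TATA box letters were present in Crp and in 12.37% of windows, and the NF-kappa-B letters were in none of the 6 windows and in 1.41% of all. These matches are descriptions of letters and not binding sites.

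Saa1, Saa2 and Apcs were each lower in HFD than in chow, by 5.55-fold, 3.83-fold and 5.86-fold. All 3 passed an adjusted p of 0.05 in limma, with Benjamini-Hochberg adjustment over all 32451 genes of the array. The share of listed genes that passed was 18.1% for lower and 23.0% for higher, out of 1488. Among all genes on the array 0.832% passed as lower, with genes outside the table counted as not passing. The median of the log2 differences of the 3 genes was -2.47, beside -0.84 over the 687 genes that were lower in the table and 0.44 over all of its genes. By size Apcs stood at place 16, Saa1 at place 19 and Saa2 at place 48 of those 687. In bulk liver, fewer cells of a type and less RNA per cell cannot be told apart.

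Saa1, in the deposited log2 values, had 19.09, 18.35, 18.17 and 17.56 in chow replicates 1 to 4. In HFD replicates 1 to 3 it had 15.59, 15.29 and 16.58. Chow replicate 1 was the highest sample and HFD replicate 3 the highest of its group, and 0.98 separated the lowest chow from the highest HFD value. The means were 18.29 ± 0.63 (SD, n = 4) and 15.82 ± 0.68 (SD, n = 3), with a log2 difference of -2.47, an SE of 0.42 and a 95% interval of 2.78-fold to 11.1-fold (limma, adjusted p = 0.0441). The highest chow value lay close to 19.27, the log2 of the signal at which the scanners saturate. Whether the table's chow values came from saturated spots is not known, since their scanner files are not at hand, and none of the 6 probes was saturated on an HFD array.

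Saa2 had deposited log2 values of 18.28, 18.15, 17.95 and 17.39 in chow replicates 1 to 4. In HFD replicates 1 to 3 it had 15.76, 15.53 and 16.72. The samples stood in the same order as for Saa1 within each diet, and the gap between the groups was 0.67, the narrowest of the 3 genes. Mean Saa2 was 17.94 ± 0.39 (SD, n = 4) under chow and 16.00 ± 0.63 (SD, n = 3) under HFD, with a log2 difference of -1.94, an SE of 0.33 and a 95% interval of 2.23-fold to 6.59-fold (limma, adjusted p = 0.0439). Saa1 and Saa2 transcripts are close copies, the probe sequences were not used here, and cross-hybridisation between the probes was not tested. The reference table also lists each of these symbols as an older synonym of the other gene, and the names here follow the accessions NM_009117 for Saa1 and NM_011314 for Saa2.

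Apcs had deposited log2 values of 14.61, 13.00, 14.14 and 14.53 in chow replicates 1 to 4. Its HFD values were 11.63, 11.14 and 11.79. Chow replicate 2 was the lowest chow sample for Apcs, whereas chow replicate 4 was the lowest for both Saa genes, and the gap between the groups was 1.21. Mean Apcs was 14.07 ± 0.74 (SD, n = 4) under chow and 11.52 ± 0.34 (SD, n = 3) under HFD. The log2 difference was -2.55 with an SE of 0.40 and a 95% interval of 3.04-fold to 11.3-fold (limma, adjusted p = 0.0373).

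**Figure D1:**
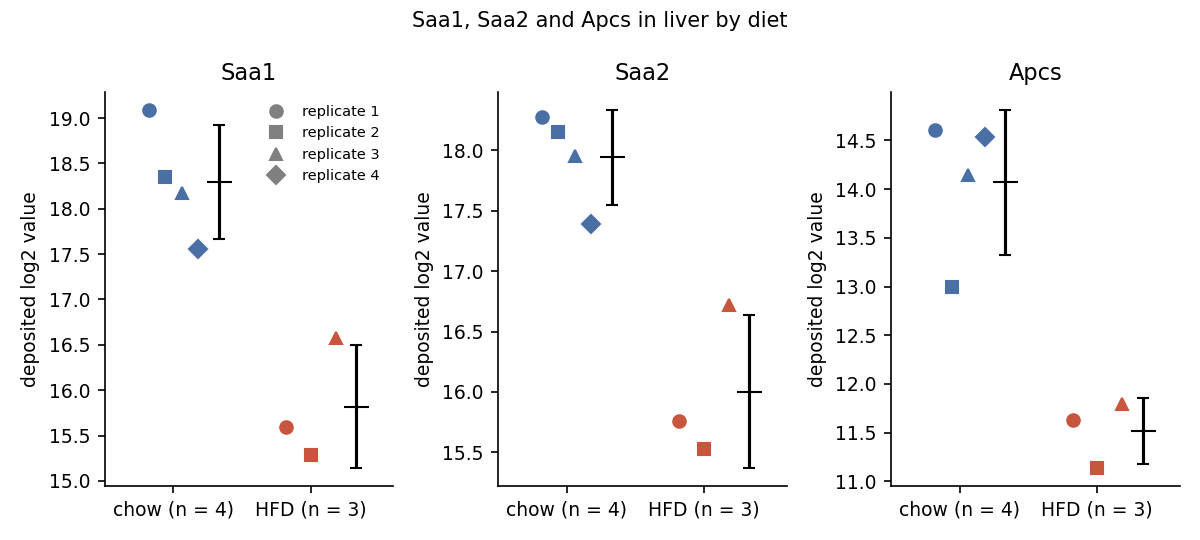
Deposited log2 value of Saa1, Saa2 and Apcs in each liver sample, by diet, with symbols for the replicate and black bars for the group mean ± SD. Chow values run from 17.56 to 19.09 for Saa1 and HFD values from 15.29 to 16.58, and chow replicate 2 is the low chow sample for Apcs (13.00); the axes do not start at 0.

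The calls were close to the threshold and most were lost in fits with a sample fewer. For Saa1 the adjusted p in limma was 0.0916, 0.107, 0.112 and 0.0845 without chow replicate 1, 2, 3 or 4, and 0.170, 0.165 and 0.0372 without HFD replicate 1, 2 or 3. For Saa2 these values were 0.117, 0.108, 0.117 and 0.0864, and 0.169, 0.160 and 0.0269. For Apcs they were 0.0939, 0.0253, 0.106 and 0.100, and 0.132, 0.149 and 0.0678. The loss was not particular to these genes. Over the table, 270 genes passed as lower with all samples. That count was 0, 51, 7 and 1 without chow replicate 1, 2, 3 or 4, and 0, 4 and 210 without HFD replicate 1, 2 or 3. The 342 genes that passed as higher became 0, 48, 4 and 2, and 0, 4 and 243. The size of the differences moved less: without any 1 sample the log2 difference lay between -2.85 and -2.21 for Saa1, between -2.30 and -1.70 for Saa2 and between -2.91 and -2.36 for Apcs.

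The spread of these genes between samples of 1 diet was wide beside that of other genes in the table. The chow SD of 0.63 for Saa1, 0.39 for Saa2 and 0.74 for Apcs compared with a median of 0.16 over the table's genes, and by chow SD Apcs stood at place 33, Saa1 at place 52 and Saa2 at place 175 of 1488. The HFD SDs of 0.68 and 0.63 for Saa1 and Saa2 and of 0.34 for Apcs compared with a median of 0.19. As the table held only probes with separate groups, a gene with a small diet difference could enter it only with a small spread. These medians and places are therefore partly set by that selection.

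The 3 genes were then set against each other within each sample, to see whether they differed by unequal amounts. Between Saa1 and Saa2 the samples of the diets were separate. The log2 value of Saa1 minus that of Saa2 was 0.81, 0.20, 0.22 and 0.17 in chow replicates 1 to 4. In HFD replicates 1 to 3 it was -0.17, -0.24 and -0.14. Every HFD sample lay below every chow sample, and chow replicate 1 stood well above the others. Its mean was 0.35 ± 0.31 (SD, n = 4) under chow and -0.18 ± 0.05 (SD, n = 3) under HFD. The change between diets was -0.53, with a 95% interval from -1.01 to -0.06 from the spread within groups, and -0.38 without chow replicate 1. An exact permutation test over the 35 assignments of samples gave a two-sided p of 0.0286, the smallest it can give, and 0.0857 when adjusted over the 3 pairs of genes. With the p-values of the other pairs as they were, 0.0857 was the lowest adjusted p this pair could reach, so that missing 0.05 says nothing about whether the decreases differ. As 2 probes can differ in brightness for equal amounts of RNA, the sign of a single difference has no meaning and its change between samples is what was compared. The limits given above apply to this change too: cross-hybridisation between the probes was not tested, and Saa1 in chow replicate 1 lay close to saturation. Each gene of the table already separated the diets, so the lack of overlap here is not independent of how the table was selected. The share of other gene pairs that also separate was not counted.

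Between the amyloid A genes and the pentraxin no difference in response was detectable. Saa1 minus Apcs was 4.22 ± 0.97 (SD, n = 4) under chow and 4.30 ± 0.43 (SD, n = 3) under HFD, with an exact two-sided permutation p of 0.914, unadjusted and adjusted alike. The change of 0.08 had a 95% interval from -1.49 to 1.64 from the spread within groups, wide enough to hold a change of over 1 in either direction. It was -0.32 without chow replicate 4, -0.17 without HFD replicate 3 and 0.45 without chow replicate 2, so that its direction was not fixed. The difference between diets in Saa2 minus Apcs was 0.61, with an interval from -0.92 to 2.14 and an exact two-sided permutation p of 0.314, adjusted to 0.471. Chow values of both pairs lay on either side of the HFD values. Chow replicate 2 had the highest chow value of each pair, 5.35 for Saa1 and 5.15 for Saa2, and chow replicate 4 the lowest, 3.03 and 2.86.

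**Figure D2:**
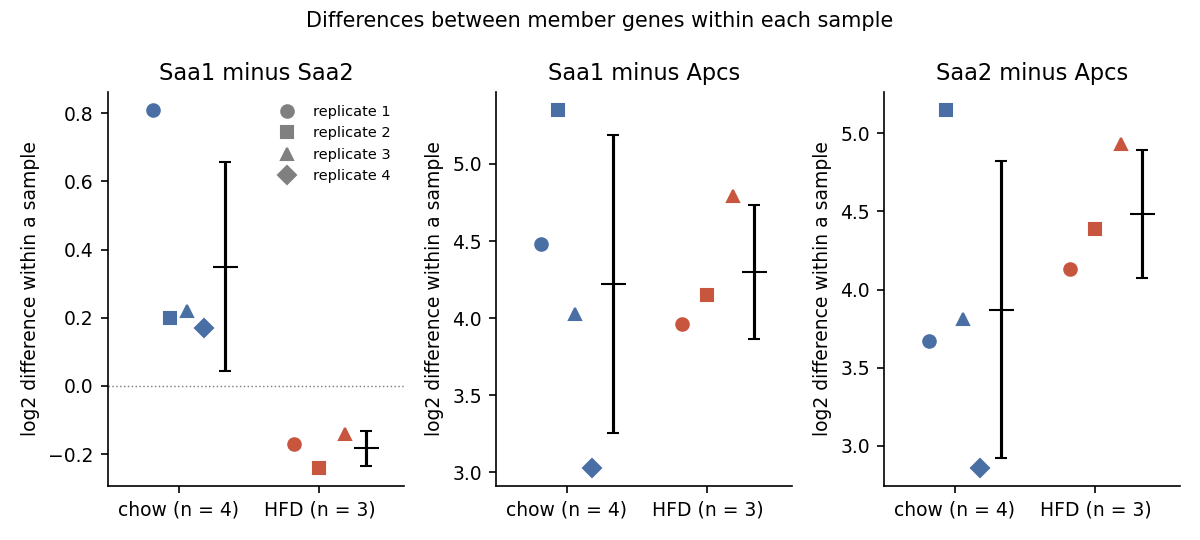
Log2 difference between pairs of the genes Saa1, Saa2 and Apcs within each sample, by diet, with symbols for the replicate and black bars for the group mean ± SD. Saa1 minus Saa2 runs from 0.17 to 0.81 in chow and from -0.24 to -0.14 in HFD, whereas the diets overlap for both pairs with Apcs.

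All 6 genes gave clear signal in HFD liver. Every one was well above background on the 3 HFD arrays, as were 57.0%, 62.3% and 66.8% of all spots on HFD replicates 1 to 3. The 6 genes had signals between 38.8 and 7845 times the array's detection floor, which is the lowest signal among probes called well above background. Signals are processed intensities, and the scaled values are their log2 minus that of the array's 75th percentile. Saa3 had signals of 1349, 843 and 1460 on HFD replicates 1 to 3, or scaled log2 values of 0.47, 0.15 and 0.80 (mean 0.48 ± 0.32, SD, n = 3). Saa4 had 12526, 14536 and 29368, or 3.69, 4.26 and 5.13 (mean 4.36 ± 0.73, SD, n = 3). Crp had 6767, 5140 and 9768, or 2.80, 2.76 and 3.54 (mean 3.04 ± 0.44, SD, n = 3). For these genes HFD replicate 3 was the highest array, and the lowest was HFD replicate 2 for Saa3 and Crp and HFD replicate 1 for Saa4. No usable chow value was at hand for them, so nothing can be said of a diet difference in Saa3, Saa4 or Crp.

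The same scanner scale gave the listed genes alongside. Saa1 had signals of 49423, 36757 and 94120 on HFD replicates 1 to 3, with a scaled mean of 6.03 ± 0.68 (SD, n = 3). Saa2 had 55179, 42542 and 105413, with a scaled mean of 6.20 ± 0.67 (SD, n = 3). Apcs had 3569, 2040 and 3568, with a scaled mean of 1.80 ± 0.34 (SD, n = 3). After scaling, HFD replicate 3 was the highest array for each of the 6 genes, as it was for 39.3% of the 19493 genes that 2 or more HFD arrays measured well above background. The scaled value of HFD replicate 3 exceeded the mean of the other HFD arrays by 1.18 for Saa1, 1.15 for Saa2, 1.16 for Saa4, 0.76 for Crp, 0.49 for Saa3 and 0.44 for Apcs, beside a median of 0.04 over those genes. Between the highest and the lowest HFD array the signals of the 6 genes thus ranged from 1.57-fold (Saa3) to 2.72-fold (Saa4) after scaling. The SD of Saa4 was larger than that of 94.5% of the 19493 genes, that of Saa1 larger than 93.6% and that of Saa2 larger than 93.3%. For Crp this share was 83.8%, for Apcs 74.7% and for Saa3 73.0%. These are descriptions over 3 arrays.

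**Figure D3:**
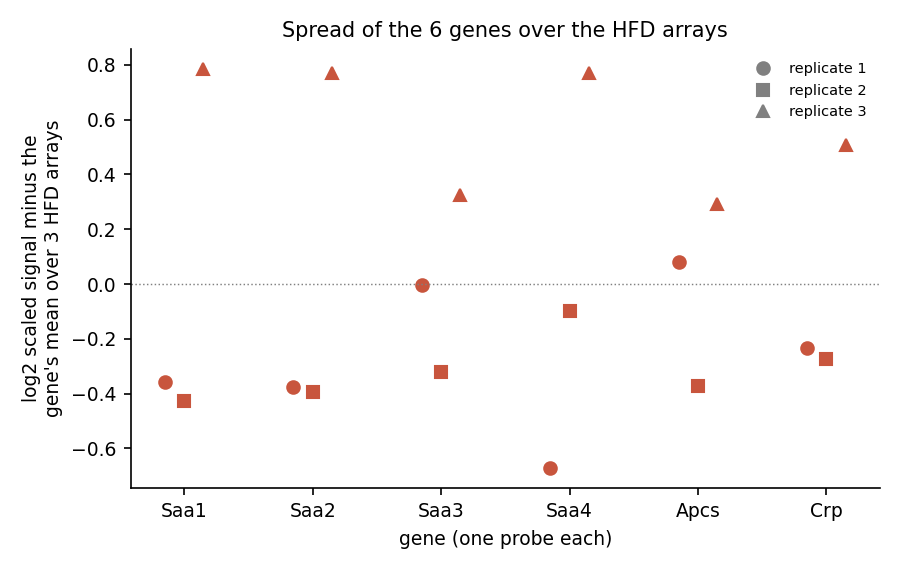
Scaled log2 signal of the 6 genes on each HFD array, as the difference from the gene's own mean over the 3 arrays, with symbols for the replicate. HFD replicate 3 lies highest for all 6 genes, and the range from lowest to highest array is widest for Saa4 (2.72-fold) and narrowest for Saa3 (1.57-fold).

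The genes of the table whose profile over the 7 samples was most like each listed gene were found by the root-mean-square difference between gene-centred log2 values, over 1166 other named genes. Closest to Saa1 were Tff3, a trefoil peptide gene (difference 0.213), Saa2 (0.333) and Derl3, a gene of endoplasmic reticulum degradation (0.347), beside a median of 1.56 over all of these genes. Closest to Saa2 were Lifr, the receptor gene for leukaemia inhibitory factor (0.203), Atp11a, a phospholipid flippase gene (0.256), and Derl3 (0.261), with Saa1 at place 8 (0.333) and a median of 1.26. Closest to Apcs were Olfr1260, an olfactory receptor gene (0.188), Serpina3n, an acute phase protease inhibitor gene (0.263), and Krtap11-1, a keratin-associated protein gene (0.351), with a median of 1.58. Apcs and Saa1 were each at place 40 from the other (0.675). Apcs was at place 286 from Saa2, and Saa2 at place 52 from Apcs (0.725). These differences include the diet difference on which the table was selected, so a decrease of like size alone brings a gene nearer. The medians include genes that were higher in HFD. Olfr1260 had low HFD values of 5.419, 4.971 and 5.935, beside 11.14 to 11.79 for Apcs. Serpina3n had its lowest chow value in chow replicate 2, at 13.93 against 14.73 to 15.42, as Apcs had. The same held for Olfr1260 (6.738) and Krtap11-1 (10.94). Among other acute phase genes it held for some, such as Fga and Mt1, and not for others, such as Orm1 and Itih3. It is therefore not particular to Serpina3n and Apcs.

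Other acute phase genes were counted from lists chosen with earlier results of these data known. Of 34 other positive acute phase genes on the array, 15 (44.1%) were in the table, 14 of them lower in HFD and 11 past the threshold, with a median log2 difference of -1.28 over the 15. Of all genes on the array 4.59% were in the table and 0.832% passed as lower, and the median over the table was 0.44. Mt1, a metallothionein gene, had the largest decrease among them, with a log2 difference of -2.91 and an SE of 0.21 (limma, adjusted p = 0.0148). Serpina3n fell 4.29-fold, Fgl1, a fibrinogen-like protein gene, 3.53-fold, and Lrg1, a leucine-rich glycoprotein gene, 2.80-fold. Itih3 and Itih4, heavy chains of inter-alpha-inhibitor, fell 2.60-fold and 1.73-fold, Orm1, an orosomucoid gene, 2.43-fold, and Serpina10 2.26-fold. Lbp, which encodes the lipopolysaccharide-binding protein, fell 1.92-fold and Vtn, vitronectin, 1.55-fold. Serpina1a, alpha-1-antitrypsin, was 1.43-fold lower and passed, but its difference was 0.15 in the other direction when the columns were quantile-normalized. The calls of Itih4 and Vtn were also lost there, at log2 differences of -0.17 and -0.36 (limma, adjusted p = 1.0 and 0.480), and Vtn had an adjusted p of 0.0523 with single probes in limma. Orm2, Fga and C3 had log2 differences of -1.38, -1.42 and -0.63 and did not pass, and Hamp2, a hepcidin gene, had 2.03 and did not pass. The count of 11 was 0, 4, 1 and 0 without chow replicate 1, 2, 3 or 4, and 0, 1 and 5 without HFD replicate 1, 2 or 3. Calls over the whole table also became fewer in each of these fits.

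**Figure D4:**
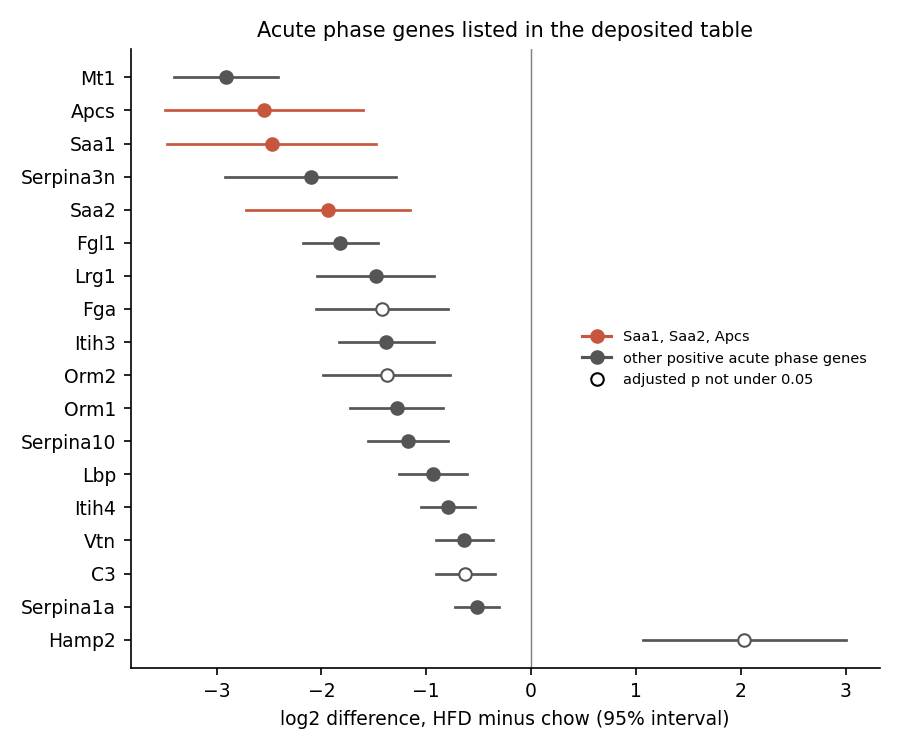
Log2 difference between HFD and chow, with its 95% interval, of Saa1, Saa2, Apcs (red) and 15 other positive acute phase genes of the deposited table; open circles did not pass an adjusted p of 0.05. Apcs and Saa1 lie next to Mt1 at the low end (-2.55 and -2.47 against -2.91), and Hamp2 is on the other side of 0 (2.03).

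Negative acute phase genes, whose products fall in plasma during inflammation, were listed for 2 of 10. Over all genes on the array the share in the table was 4.59%. Of the table's genes 18.1% passed as lower and 23.0% as higher. Apom, a carrier apolipoprotein of high-density lipoprotein, was 2.26-fold lower and passed (limma, adjusted p = 0.0180). Apoa4 had a log2 difference of 2.04 and did not pass (limma, adjusted p = 0.0530). Of 30 genes of upstream signalling on the array, 26 were well above background on all 3 HFD arrays, beside 57.0% to 66.8% of all spots on single HFD arrays. Of the 30, 1 was in the table: Lifr fell 3.76-fold, from 13.83 ± 0.33 (SD, n = 4) to 11.91 ± 0.63 (SD, n = 3) (limma, adjusted p = 0.0400). Its values were 13.94, 14.22, 13.69 and 13.45 in chow and 11.40, 11.72 and 12.62 in HFD. HFD replicate 3 was its highest HFD sample, as for Saa1, Saa2 and Apcs. This is not particular to these genes, since among scaled HFD signals it was highest for 39.3% of 19493 genes. Of 24 receptors and partners of the amyloid A and pentraxin proteins, 3 were in the table. Cd36, a scavenger receptor, rose 5.60-fold and Pltp, a phospholipid transfer protein of high-density lipoprotein, rose 2.27-fold, and Lcat, its cholesterol acyltransferase, had a log2 difference of -0.65 and did not pass. Without HFD replicate 3 the calls of Lifr, Apom, Cd36 and Pltp were kept, and without chow replicate 2 those of Apom and Cd36. Without any other sample each was lost, and so were those of Lifr and Pltp without chow replicate 2 (limma, adjusted p from 0.0571 to 0.161).

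Markers of other cell types were counted in the same table. Of all genes on the array 4.59% were in the table, and of the table's genes 23.0% passed as higher and 18.1% as lower. Of 11 Kupffer cell and macrophage markers on the array, the table held 3, Gpnmb, Itgam and Ccr2, which all passed as higher in HFD. The other markers of that list, among them Adgre1, Clec4f, Timd4 and Vsig4, were not in the table and have no diet comparison. The summed linear values of Gpnmb, Itgam and Ccr2 ran from 2632 to 2726 in chow and from 4372 to 5950 in HFD. Itgam makes up most of that sum. All chow values of Gpnmb and 2 of Ccr2 lay below the highest detection floor of the HFD arrays. Of 8 stellate cell markers 2 (Col3a1 and Dcn) were in the table, summing to 39593 to 47134 in chow and 57624 to 82960 in HFD, and neither passed. Dcn makes up most of that sum. Of 12 hepatocyte markers 2 (Cps1 and Serpina1a) were in the table, both lower in HFD, summing to 360895 to 393461 in chow and 249417 to 280155 in HFD. Serpina1a, which passed, makes up most of that sum, and its direction turned with quantile-normalized columns (0.15). None of the 8 neutrophil, 6 adipocyte, 6 lymphocyte, 5 endothelial or 4 cholangiocyte markers was in the table. On the HFD arrays 4 of the 6 adipocyte markers (Adipoq, Lep, Plin1 and Retn) were not well above background on every array. Of the neutrophil markers 5 of 8 were (not Mpo, Ngp and Cxcr2), and of the lymphocyte markers 4 of 6 were (not Cd79a and Cd8a). All endothelial and cholangiocyte markers were well above background on every HFD array. The part of these cell types in the differences of Saa1, Saa2 and Apcs was not tested.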

How the data were processed

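Total RNA from liver (0.5 microgram per sample) was labelled with Cy3, per the labels' protocols. The deposited scanner files hold, for every spot, an intensity (background-subtracted per the file headers) and flags. Feature Extraction is given as version 10.7.3.1 in those headers but as 9.1 in the submitters' processing notes. The authors also deposited log2 values for 1615 probes, and how these were normalized and selected is not given in the sources used here. Column medians lay between 9.55 and 9.85. For Saa1, Saa2 and Apcs the HFD columns differed from the log2 of the signals by -0.17 to 0.15, and the chow columns have no matching scanner file to test their scale against. Probes were named through RefSeq accessions in a gene table of GRCm38.p6 (27234 of 39429 probes).

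A gene with several probes was represented by its brightest, by mean. Diets were compared with limma 3.58.1 under R 4.3.3, fitted to the log2 table. Variances were moderated toward a prior (0.0354, 2.10 degrees of freedom) estimated from 19493 genes that 2 or more HFD arrays measured well above background. Benjamini-Hochberg adjustment ran over 32451 genes, a p of 1 standing for each gene absent from the table. The procedure was tested on simulated data. Their variances were drawn from the same prior that the fit used. The simulation therefore tested neither that prior nor the unknown normalization of the deposited values. No spot was saturated, and between 57.0% and 66.8% of spots per array were well above background. Same-numbered chow and HFD samples had deviations that correlated at -0.10, 0.14 and 0.03. Those of unlike number correlated at -0.16 to 0.14. No pairing by number was therefore visible, but so few samples cannot exclude it.

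Named genes were all 6 members, every gene of the acute phase lists that was in the table, and the 3 closest profiles of each listed member. The members and lists were chosen with earlier results of these data known. Alternatives were another prior, another adjustment, single probes, 2 rescalings, a replicate block, samples left out and, for HFD levels, another scaling and background correction.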

Additional observations from a re-analysis of the deposited data

Results flagged for a closer look

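Of 33 sets of 4 chow values examined for a sample far from the others, 3 stood out, where chance gives about 1 in 20. In Saa1 minus Saa2 the gap of chow replicate 1 (0.81) to the nearest chow sample (0.22) was 0.922 of the whole chow range, above the critical value of 0.829. The same share was 1.0 for Serpina1a, where chow replicate 2 had 18.38 and the other chow samples 18.47, and 0.873 for Gpnmb, where chow replicate 3 had 3.45 with each chow value under the detection floors of the HFD arrays.

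In the scanner files labelled chow, which enter no comparison, the Saa1 probe was well above background on all 4 arrays, with signals of 223, 248, 251 and 244 (mean 241.5). On these 4 files the probes of the other 5 genes stayed below that limit, with Saa2 at 4.65 to 5.74. On the HFD arrays the Saa1 and Saa2 probes gave signals of at least 36757 and 42542.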

How the results depend on the processing

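The direction of the differences of Saa1, Saa2 and Apcs was the same under every alternative run. They stayed past the threshold with the prior taken from the table, with adjustment over the table alone, with single probes and with median-centred columns, which moved every gene by -0.21. Quantile-normalized columns, with a median shift of -0.14, took Saa2 to -1.69 and past the threshold no longer (limma, adjusted p = 0.0611). Over the table, genes past the threshold numbered 270 lower and 342 higher, 605 and 186 with median-centred columns, and 531 and 289 with quantile-normalized ones. With the replicate block, over the 6 samples with shared numbers, the differences were -2.72, -2.12 and -2.40 (limma, adjusted p = 0.227, 0.230 and 0.221) and 0 of the 3 genes passed, all 3 having an unadjusted p under 0.05; no gene of the table passed there. The same 6 samples without the block also left 0 of the 3 genes past the threshold. Without any 1 sample the log2 difference ran from -2.85 to -2.21 for Saa1, -2.30 to -1.70 for Saa2 and -2.91 to -2.36 for Apcs, and the number passing from 0 to 2, in fits with fewer samples. The 11 positive acute phase genes past the threshold became 10 to 14 under the other priors, adjustments and scalings, and 0 with the block. Serpina1a turned to 0.15 with quantile-normalized columns. Set against the array median, the HFD levels were 9.57 for Saa1, 9.75 for Saa2, 4.02 for Saa3, 7.90 for Saa4, 5.34 for Apcs and 6.58 for Crp, a change of reference alone. Normexp was run on median signals, and no second probe was at hand for any of the 6 genes.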
